A study of Astyanax mexicanus with 20 samples.

Results

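The account concerns skeletal muscle of the blind cave form of Astyanax mexicanus, a teleost fish, 7 days after injury with cardiotoxin. 5 cave libraries were used, chosen by their labels: 2 from muscle injected with cardiotoxin and collected 7 days post injury (dpi), and 3 controls injected with phosphate-buffered saline (PBS), out of 20 libraries in the series. All 5 came from fish labelled troglobitic cavefish. No strain, cave population, sex or age is given in the labels, and since no day is stated for the controls, the time after injection may differ between the groups. The other cave groups compared were those at 1 dpi (3 libraries) and 14 dpi (2 libraries). The river-dwelling surface form was compared with PBS (3 libraries) and at 7 dpi (2 libraries). Surface fish at 1 dpi (3 libraries) and 14 dpi (2 libraries) were in no comparison. They did enter the filter, the scaling and the model behind the standard errors and p-values, and their levels are plotted beside those of cave fish. All samples carry the protocol label of free running in darkness, and the design text speaks of collection around the day, but no library has an hour. The labels do not say whether each library is a separate fish; p-values therefore describe only the spread from library to library, and that spread may be technical.

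Cardiotoxin is a snake venom peptide that destroys the membrane of muscle fibres and largely spares the resident stem cells. In vertebrate muscle, neutrophils and then macrophages clear the debris, Pax7-positive satellite cells enter the cell cycle, and their progeny, the myoblasts, pass through Myf5, MyoD and myogenin before they fuse into new fibres. New fibres first carry embryonic and cardiac forms of the contractile proteins, which are later replaced by adult fast or slow forms. The comparison with PBS controls asked which of these programmes stood above or below the level of PBS-injected muscle at 7 dpi.

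Levels are TPM (transcript abundance per length, set to a fixed total in each library) scaled between libraries, and differences are log2(scaled TPM + 1) at 7 dpi minus control, with the standard error of the limma model. A gene is said to have risen or fallen where its adjusted p was under 0.05. Read depth is unknown. The 5 libraries held 12615 to 13779 identifiers at 1 TPM or more, and correlations over genes were 0.976 between the 2 injured libraries, 0.958 to 0.967 among controls and 0.925 to 0.941 across the groups. Muscle markers were present: of 20 marker symbols 14 were tested, as 15 identifiers, and 0 were called. ckma, the muscle creatine kinase, ran from 16257 to 20248 scaled TPM, and pvalb4, a parvalbumin that buffers calcium in fast fibres, had the highest TPM in all 5. A single control stood apart: the summed level of 33 skin and epithelial genes was 3291 in control 2, against 636 and 1049 in the other controls and 1486 and 1451 at 7 dpi. krt5, a keratin of the skin's basal layer, was at 671 in that library and at 15.1 to 67.6 in the other 4. In such bulk samples, fewer cells of a type and less RNA per cell cannot be told apart.

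At 7 dpi 905 genes were higher and 341 lower than in the controls, 5.36% and 2.02% of the 16884 tested (limma, 7.38% in all). The rises were the larger changes: 604 were at least 2-fold and 55 at least 8-fold, against 174 and 1 among the falls. Both 7 dpi libraries lay beyond all 3 controls for every called gene, 905 of 905 and 341 of 341. Over all genes tested that was so for 26.8% above and 20.3% below, and the median log2 difference was 0.03. The 15 largest rises among genes with a symbol were pvalb1, ankrd1b, tnni2b.1, pvalb2, cfd, apoeb, nes, actc1a, myhb, apoc1, myog, chrna1, slc43a2b, tnnt2c and mat1a, with log2 differences from 7.32 to 3.93. The 15 largest falls were prg4b, tdh, pparaa, pvalb6, pik3ip1, SLC25A12, peli1a, phkg1a, ucp3, mybpc2a, phtf2, lmx1a, mknk2a, slc25a33 and acyp2, from -2.60 to -1.73.

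A fit without 7 dpi library 1 or 2 holds 1 injured library. Fewer calls there cannot tell lost replication from dependence on the library removed. The counts were lower whichever library was left out. Without 7 dpi library 1 or 2 they were 223 and 156 genes, and without control 1, 2 or 3 they were 758, 749 and 612. 105 genes, 95 higher and 10 lower, were called whichever library was left out. On unscaled TPM 564 genes were called and 87.1% of them were higher, against 72.6% with scaling.

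**Figure D1:**
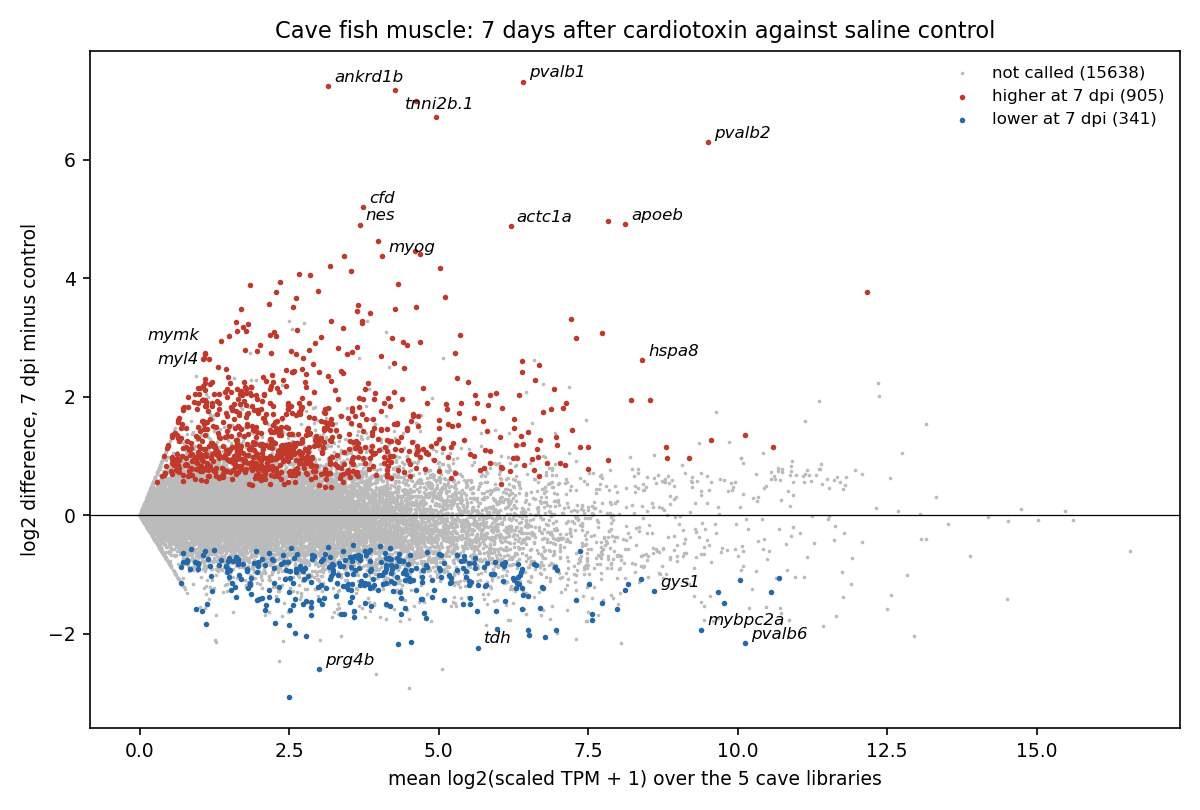
Difference between 7 dpi and control (y axis, log2) against the mean level over the 5 cave libraries (x axis, log2 of scaled TPM + 1); each point is a gene, red where higher (905), blue where lower (341) and grey where not called (15638). The rises reach 7.32 and the falls -3.07, and the most abundant genes, at the far right, are grey.

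Some regulators of muscle formation rose, and most were not called. Of 42 tested genes for myogenic regulators and muscle stem cells, 10 were higher (5.36% of all genes tested were) and 0 lower (2.02%), with a median log2 difference of 0.06 against 0.03 over all genes. In the myogenic list the higher and lower counts were 9 and 2 after quantile normalization, 5 and 0 without 7 dpi library 2. mymk encodes Myomaker, the membrane protein that myoblasts need to fuse; it was listed at 0 in all 3 controls and at 7.19 and 4.46 scaled TPM at 7 dpi (adjusted p = 4.85e-06). myog, or myogenin, the factor that starts terminal differentiation, was at 6.33, 6.84 and 1.11 in the controls and 100.4 and 103 at 7 dpi, a log2 difference of 4.37 ± 0.75, adjusted p = 0.00344. These values put mymk and myog far above every control. myf5, an early determination factor, was at 1.36, 1.33 and 0.908 in the controls and 7.51 and 6.24 at 7 dpi (1.84 ± 0.28, adjusted p = 0.00158). pax7b, which marks satellite cells, was low throughout at 0.439, 0.465 and 0.98 in the controls and 2.16 and 2.45 at 7 dpi (1.03 ± 0.26, adjusted p = 0.028).

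A further determination factor was not called: myod1 was at 90.8, 72.4 and 70.13 in the controls and 71.5 and 59.8 at 7 dpi, overlapping groups with a log2 difference of -0.24 ± 0.51, adjusted p = 0.838. Surface proteins of myoblasts were among the rises. met, the receptor for hepatocyte growth factor, was at 1.47, 1.67 and 0.872 in the controls and 10.1 and 10.1 at 7 dpi (2.27 ± 0.24, adjusted p = 0.000124). ncam1a, a neural cell adhesion molecule also carried by myoblasts and denervated fibres, was at 1.23, 1.23 and 2.14 in the controls and 9.26 and 12.7 at 7 dpi (2.25 ± 0.31, adjusted p = 0.000656). jam2a, an adhesion molecule needed for myoblast fusion in zebrafish, was at 0.42, 0.242 and 0.323 in the controls and 1.88 and 1.91 at 7 dpi (1.13 ± 0.14, adjusted p = 0.000376). In each of them both injured libraries lay above every control, as in every gene called higher (26.8% of all genes). mymk, myf5, met, ncam1a and jam2a kept their calls whichever of the 5 libraries was left out, and the adjusted p rose to at most 0.0524 for myog and 0.193 for pax7b without 7 dpi library 2. After quantile normalization pax7b had an adjusted p of 0.055.

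**Figure D2:**
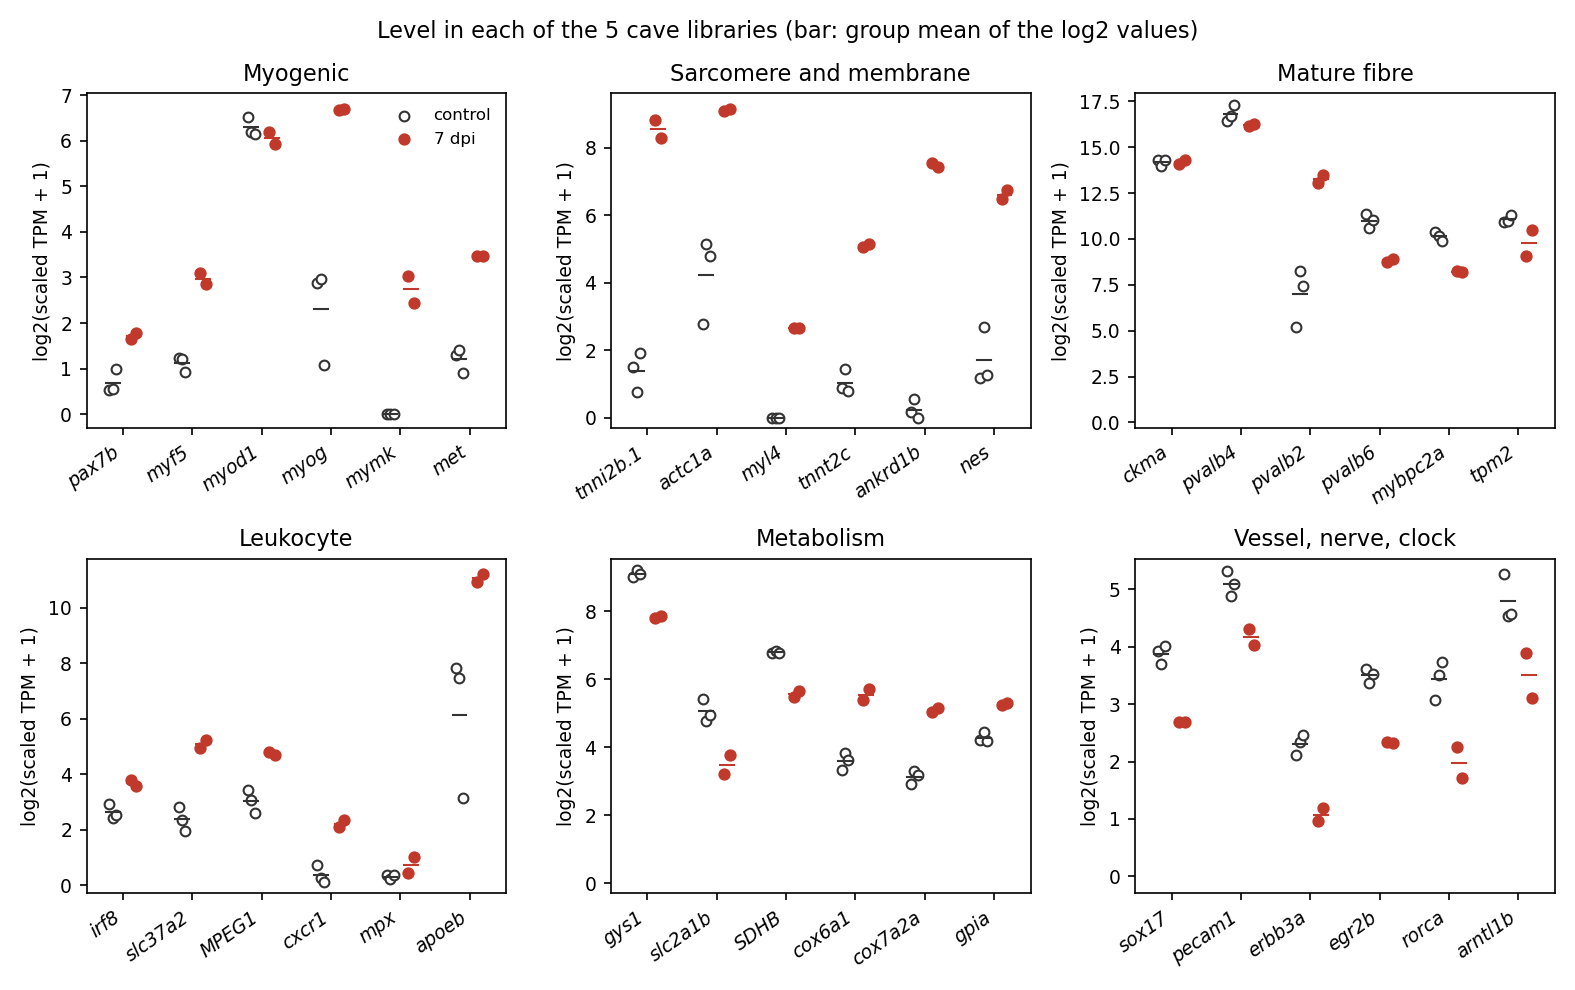
Level of 36 genes in each of the 5 cave libraries (y axis, log2 of scaled TPM + 1), controls as open points, 7 dpi as red points and bars at the group means of the log2 values, in 6 panels by role. mymk and myl4 leave 0 only at 7 dpi, myod1 and ckma overlap between the groups, and gys1, SDHB and sox17 sit lower at 7 dpi.

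Most genes of the sarcomere lists were not called, and a few rose by a large factor. Of 58 developmental, cardiac and remodelling sarcomere genes, 6 were higher and 4 lower (5.36% and 2.02% of all genes), with a median of -0.06, or 0.10 after quantile normalization. In the developmental sarcomere list the higher and lower counts were 6 and 0 on unscaled TPM and without control 2, 5 and 0 without 7 dpi library 1 or control 1, 4 and 1 without 7 dpi library 2, 6 and 1 without control 3. tnni2b.1, a fast troponin I, was at 1.83, 0.688 and 2.82 in the controls and 457 and 315 scaled TPM at 7 dpi (7.17 ± 0.70, adjusted p = 5.48e-05). ankrd1b, a stretch-responsive ankyrin repeat protein of the sarcomere, was at 0.117, 0.475 and 0 in the controls and 186 and 172 at 7 dpi (7.25 ± 0.59, adjusted p = 9.53e-06). Both were far above every control in both injured libraries. Its paralogue ankrd1a was at 38.5, 240.2 and 19.2 in the controls and 188 and 379 at 7 dpi, and the groups overlapped (2.22 ± 1.16, adjusted p = 0.261). tnnt2c, a cardiac-type troponin T, was at 0.829, 1.73 and 0.741 in the controls and 32.4 and 34.6 at 7 dpi (4.07 ± 0.70, adjusted p = 0.00357), and myl4, the embryonic and atrial light chain of myosin, was listed at 0 in every control and at 5.27 and 5.38 at 7 dpi. The 4 lower members were tpm4b, desmb, hspb7 and myh11a; hspb7, a small heat shock protein of striated muscle, was at 127, 232 and 136 in the controls and 38.603 and 72.6 at 7 dpi (-1.57 ± 0.43, adjusted p = 0.0373). tnni2b.1, ankrd1b and myl4 kept their calls whichever of the 5 libraries was left out, and the adjusted p rose to at most 0.0545 for tnnt2c without 7 dpi library 2, and 0.295 for hspb7 without 7 dpi library 1. On unscaled TPM hspb7 had an adjusted p of 0.126, and with a pseudocount of 0.1 tnnt2c 0.0799, and with no filter hspb7 0.0549, and with only the compared groups hspb7 0.0793.

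Within families of muscle proteins some members rose while the abundant adult member was not called; these families were looked up after the values were seen. Among actins, the thin-filament proteins, actc1a rose from 5.84, 34.8 and 26.997 to 546 and 569 scaled TPM (4.88 ± 1.16, adjusted p = 0.0212). An ACTA1 gene at a low level was at 2.97, 8.45 and 13.3 in the controls and 54.1 and 75.3 at 7 dpi (2.997 ± 0.49, adjusted p = 0.00291). The abundant ACTA1 gene was at 36839, 39377 and 60525 in the controls and 41688 and 52216 at 7 dpi (0.07 ± 0.77, adjusted p = 0.98), so its groups overlapped. Of 5 actin identifiers tested, 2 were higher and 0 lower (5.36% and 2.02% of all genes). Where identifiers share a symbol or a near-identical sequence, reads may have been split between them by the estimate. ACTA1 reached an adjusted p of 0.0562 and actc1a 0.148 without 7 dpi library 2, the highest values with single libraries left out. With a pseudocount of 0.1 actc1a had an adjusted p of 0.101.

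Parvalbumins, small proteins that bind calcium and speed relaxation in fast fish muscle, moved in opposite directions: 2 of 7 tested were higher and 1 lower (5.36% and 2.02% of all genes). Both injured libraries lay below all controls in 4 of the 7 and above in 2 (20.3% and 26.8% of all genes), with a median of -0.61. pvalb2 was at 36.02, 307 and 175 in the controls and 8492 and 11599.9 scaled TPM at 7 dpi (6.30 ± 0.78, adjusted p = 0.000366). pvalb1 was at 4.43, 19.5 and 11.3 in the controls and 1037 and 3039 at 7 dpi (7.32 ± 1.17, adjusted p = 0.00228). pvalb6 went the other way, at 2594, 1530.1 and 2119.5 in the controls and 423 and 485 at 7 dpi (-2.16 ± 0.50, adjusted p = 0.0188). The dominant pvalb4 was at 88699, 104588 and 163281 in the controls and 72819 and 77954 at 7 dpi, lower in both injured libraries but not called (-0.61 ± 0.58, adjusted p = 0.57). pvalb2 kept its call whichever of the 5 libraries was left out, and the adjusted p rose to at most 0.0544 for pvalb1 without 7 dpi library 2, and 0.136 for pvalb6 without 7 dpi library 1.

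The receptor of the neuromuscular junction showed a similar split. A chrna1 identifier, the alpha subunit of the muscle acetylcholine receptor, was at 0.546, 4.04 and 1.83 in the controls and 46.9 and 55.4 scaled TPM at 7 dpi (4.21 ± 0.65, adjusted p = 0.00177). The second identifier with this name, CHRNA1, was at 94.7, 85.4 and 112 in the controls and 76.4 and 72.4 at 7 dpi and was not called (-0.38 ± 0.24, adjusted p = 0.367). Of 6 receptor subunit identifiers tested, 1 was higher and 0 lower (5.36% and 2.02% of all genes). The gamma subunit chrng, the fetal form in mammals, was at 0.0781, 0.504 and 0.179 in the controls and 0.282 and 1.13 at 7 dpi (0.41 ± 0.26, adjusted p = 0.355). nes, or nestin, an intermediate filament of muscle precursors and of the junction, rose from 1.29, 5.42 and 1.4 to 89.5 and 106 (4.91 ± 0.74, adjusted p = 0.00148). MUSK, the kinase that organises the junction, fell from 109, 102 and 110.3 to 61.4 and 45.1 (-1.01 ± 0.21, adjusted p = 0.0119). In the list of 32 junction genes 2 were higher and 1 lower, near the share of all genes (5.36% and 2.02%). In the junction list the higher and lower counts were 2 and 0 on unscaled TPM and without 7 dpi library 2. chrna1 and nes kept their calls whichever of the 5 libraries was left out, and the adjusted p rose to at most 0.172 for MUSK without 7 dpi library 2. On unscaled TPM MUSK had an adjusted p of 0.0866.

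Adult fast-muscle genes were for the most part not called. Of 61 tested 3 were higher (pvalb1, pvalb2 and myhb) and 2 lower, near the share of all genes (5.36% and 2.02%), with a median of -0.25. In 24 of them both injured libraries lay below all controls (20.3% of all genes). In the fast-muscle list the higher and lower counts were 4 and 5 after quantile normalization, 3 and 1 without 7 dpi library 1, control 1 or control 3, 1 and 1 without 7 dpi library 2. myhb, a fast myosin heavy chain, was at 1.97, 9.08 and 1.8 in the controls and 76.2 and 152 scaled TPM at 7 dpi (4.63 ± 0.85, adjusted p = 0.0054). mybpc2a, the fast myosin-binding protein C, was at 1334, 1146 and 961 in the controls and 301 and 294 at 7 dpi (-1.93 ± 0.27, adjusted p = 0.000752). The muscle creatine kinase ckma was at 20248, 16257 and 20091 in the controls and 17087 and 19953 at 7 dpi (-0.02 ± 0.33, adjusted p = 0.985), overlapping between the groups. Among 18 slow-muscle genes 0 were higher and 1 lower (5.36% and 2.02% of all genes). In the slow-muscle list the higher and lower counts were 0 and 0 on unscaled TPM and after quantile normalization and without 7 dpi library 1, control 2 or control 3. That gene was tpm2, a tropomyosin, at 1921, 2051 and 2549 in the controls and 542 and 1411 at 7 dpi (-1.301 ± 0.37, adjusted p = 0.0458), where the injured libraries stood far apart. The median of the slow list was -0.43, but 0.05 without 7 dpi library 1 and -1.51 without library 2, and its summed level was 7438 and 10166 in the 2 injured libraries. mybpc2a kept its call whichever of the 5 libraries was left out, and the adjusted p rose to at most 0.0922 for myhb without 7 dpi library 2, and 0.456 for tpm2 without 7 dpi library 1. On unscaled TPM tpm2 had an adjusted p of 0.0878, and with no filter tpm2 0.0702, and after quantile normalization tpm2 0.0576, and with only the compared groups tpm2 0.138.

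Macrophage genes held the most rises of the 27 lists: 27 of 69 identifiers tested were higher and 0 lower (5.36% and 2.02% of all genes). Of these identifiers 49 had both injured libraries above all controls (26.8% of all genes). Without 7 dpi library 1 or 2, 2 and 1 of them were called, with medians of 1.101 and 1.17, and without control 2 or 3, 13 and 12. Calls over all genes fell in these fits too, to 553 and 463 higher without control 2 or 3, against 905 with all libraries. With all libraries the median log2 difference of the macrophage list was 1.18. Its summed level was 6584 and 6816 scaled TPM at 7 dpi against 1736 to 2662 in the controls. apoeb, a lipid-carrying apolipoprotein of macrophages and other cells, was at 224, 178 and 7.76 in the controls and 1943 and 2351 at 7 dpi (4.92 ± 1.22, adjusted p = 0.0254). apoc1, another apolipoprotein, was at 38.3, 1.64 and 2.33 in the controls and 135 and 176 at 7 dpi (4.47 ± 1.06, adjusted p = 0.0211). In both genes 1 or more controls lay far from the rest. The mannose receptor mrc1b has 6 identifiers tested; its highest was at 9.21, 2.48 and 3.19 in the controls and 62.1 and 41.2 at 7 dpi (3.28 ± 0.54, adjusted p = 0.00301). slc37a2, a sugar-phosphate transporter of phagocytes, was at 6.07, 4.05 and 2.9 in the controls and 29.8 and 36.9 at 7 dpi (2.72 ± 0.44, adjusted p = 0.00278).

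Further macrophage genes covered uptake and digestion of debris. npc2, which carries cholesterol out of lysosomes, was at 94.2, 51.3 and 59.9 in the controls and 287 and 298 scaled TPM at 7 dpi (2.13 ± 0.42, adjusted p = 0.00839). havcr1, a receptor for the phosphatidylserine of dying cells, was at 2.79, 1.43 and 0.896 in the controls and 18.03 and 25.8 at 7 dpi (3.12 ± 0.59, adjusted p = 0.00647). MPEG1, the pore-forming protein of macrophages, was at 9.65, 7.34 and 5.07 in the controls and 26.6 and 24.5 at 7 dpi (1.71 ± 0.45, adjusted p = 0.0322). The growth factor receptor csf1ra, a defining gene of the lineage, was at 17.3, 10.52 and 11.9 in the controls and 12.9 and 12.6 at 7 dpi and its groups overlapped (-0.02 ± 0.22, adjusted p = 0.978). Of 86 macrophage identifiers found, 3 were listed at 0 in all 5 libraries. The 86 identifiers carry 56 symbols, so some symbols were counted more than once in this list. slc37a2 reached an adjusted p of 0.0528, apoeb 0.171, apoc1 0.163, npc2 0.0907 and havcr1 0.0942 without 7 dpi library 2, and mrc1b 0.0531 and MPEG1 0.175 without 7 dpi library 1, the highest values with single libraries left out. On unscaled TPM MPEG1 had an adjusted p of 0.058, and with only the compared groups apoeb 0.122 and apoc1 0.103.

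Of 27 neutrophil genes 8 were higher and 0 lower (5.36% and 2.02% of all genes; median 0.61). In the neutrophil list the higher and lower counts were 4 and 0 on unscaled TPM and without control 2, 1 and 0 without 7 dpi library 1, 7 dpi library 2 or control 3. cxcr1, the chemokine receptor that draws neutrophils to tissue, was at 0.634, 0.204 and 0.0717 in the controls and 3.3 and 4.05 scaled TPM at 7 dpi (1.86 ± 0.23, adjusted p = 0.000366). padi2, which converts arginine in proteins to citrulline, was at 11.13, 12.2 and 6.73 in the controls and 21.6 and 24.6 at 7 dpi (1.16 ± 0.28, adjusted p = 0.0236). rac2, the GTPase of white blood cells, was at 27.2, 22.3 and 12.3 in the controls and 63.3 and 61.0 at 7 dpi (1.62 ± 0.40, adjusted p = 0.0245). mmp13b, a collagenase, was at 5.01, 2.11 and 4.19 in the controls and 16.98 and 29.5 at 7 dpi (2.35 ± 0.58, adjusted p = 0.0243). The granule enzyme mpx, the defining neutrophil gene, stayed near 0 at 0.293, 0.155 and 0.275 in the controls and 0.35 and 1.02 at 7 dpi (0.41 ± 0.48, adjusted p = 0.655), and mmp9, a gelatinase, was at 8.07, 6.98 and 10.003 in the controls and 9.37 and 16.2 at 7 dpi (0.53 ± 0.59, adjusted p = 0.645). For both genes a second identifier was listed at 0 in all 5 libraries and was not tested. The 2 il1b identifiers, for the cytokine interleukin 1 beta, were not called; the one with the higher level was at 2.82, 8.73 and 2.65 in the controls and 3.32 and 1.34 at 7 dpi. cxcr1 kept its call whichever of the 5 libraries was left out, and the adjusted p rose to at most 0.181 for padi2, 0.153 for rac2 and 0.221 for mmp13b without 7 dpi library 2. On unscaled TPM padi2 had an adjusted p of 0.101 and rac2 0.0558, and with a pseudocount of 0.1 mmp13b 0.0572, and with only the compared groups padi2 0.069 and rac2 0.0601.

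In 28 lymphocyte genes 2 were higher and 0 lower (5.36% and 2.02% of all genes; median 0.51), with a summed level of 81.1 and 84.8 scaled TPM against 31.4 to 50.3. In the lymphocyte list the higher and lower counts were 1 and 0 on unscaled TPM and after quantile normalization and without control 1 or control 3, 0 and 0 without 7 dpi library 1 or 7 dpi library 2. blnk, a B cell adaptor, was at 2.25, 1.05 and 1.15 in the controls and 7.37 and 4.68 at 7 dpi (1.51 ± 0.32, adjusted p = 0.0125). il10ra, an interleukin 10 receptor chain, was at 1.52, 1.34 and 1.09 in the controls and 2.85 and 2.82 at 7 dpi (0.73 ± 0.21, adjusted p = 0.0473). Complement and coagulation genes gave 7 higher and 0 lower of 23 tested (5.36% and 2.02% of all genes), or 0 and 1 higher without 7 dpi library 1 or 2; c1qa, c1qb and c1qc, the recognition subunits of complement, are in the macrophage list too. cfd, the protease complement factor D, was at 0.595, 9.78 and 0.789 in the controls and 118 and 111 at 7 dpi (5.20 ± 0.93, adjusted p = 0.00468). cfp, or properdin, was at 2.66, 0.262 and 0.299 in the controls and 19.6 and 7.59 at 7 dpi (2.87 ± 0.51, adjusted p = 0.00429). f13a1b, the clot-stabilising transglutaminase, was at 32.6, 14.1 and 9.76 in the controls and 162.7 and 128 at 7 dpi (3.04 ± 0.56, adjusted p = 0.00585). serping1, the C1 inhibitor, was at 16.5, 8.3 and 6.39 in the controls and 51.1 and 37.9 at 7 dpi (2.08 ± 0.44, adjusted p = 0.0118). All 4 lay above every control in both injured libraries, as did every gene called higher (26.8% of all genes). blnk reached an adjusted p of 0.149, cfp 0.0862, f13a1b 0.0754 and serping1 0.124 without 7 dpi library 1, and il10ra 0.223 and cfd 0.0562 without 7 dpi library 2, the highest values with single libraries left out. On unscaled TPM il10ra had an adjusted p of 0.0934, and with a pseudocount of 0.1 il10ra 0.0569, and with no filter il10ra 0.0699, and after quantile normalization il10ra 0.0798, and with only the compared groups blnk 0.0534, il10ra 0.0526, cfp 0.0667 and serping1 0.053.

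Of 65 cytokine and inflammatory signalling genes 6 were higher and 1 lower (5.36% and 2.02% of all genes; median 0.18). In the cytokine list the higher and lower counts were 3 and 0 on unscaled TPM, 1 and 1 without 7 dpi library 1, 1 and 0 without 7 dpi library 2, 6 and 0 without control 1, 4 and 0 without control 3. fosl1b, a subunit of the AP-1 transcription factor, was at 0, 0.339 and 0.394 in the controls and 5.63 and 6.38 scaled TPM at 7 dpi (2.51 ± 0.31, adjusted p = 0.000366). tgfb1b, a transforming growth factor beta, was at 9.6, 4.77 and 5.88 in the controls and 24.1 and 18.6 at 7 dpi (1.56 ± 0.31, adjusted p = 0.00867). tlr8a, a sensor of RNA, was at 1.25, 1.12 and 1.27 in the controls and 4.06 and 4.16 at 7 dpi (1.21 ± 0.22, adjusted p = 0.00507). il13ra1, a receptor chain for interleukins 4 and 13, was at 4.04, 3.37 and 2.23 in the controls and 7.22 and 8.35 at 7 dpi (1.08 ± 0.24, adjusted p = 0.0151). The lower gene was cxcl12b. Interferon and antigen presentation genes were near the share of all genes (5.36%), with 1 of 31 higher, and 0 under every other setting tried for the list. It was the proteasome subunit psmb10 at 0.986, 1.09 and 0.681 in the controls and 2.68 and 2.81 at 7 dpi (0.97 ± 0.28, adjusted p = 0.0475). fosl1b kept its call whichever of the 5 libraries was left out, and the adjusted p rose to at most 0.0664 for tlr8a, 0.151 for il13ra1 and 0.242 for psmb10 without 7 dpi library 2, and 0.107 for tgfb1b without 7 dpi library 1. On unscaled TPM il13ra1 had an adjusted p of 0.057 and psmb10 0.1, and with no filter psmb10 0.0714, and after quantile normalization psmb10 0.0521, and with only the compared groups tgfb1b 0.0514 and il13ra1 0.0621.

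Some genes of collagen processing rose, most were not called, and no collagen chain was called. Of 45 genes for fibrillar collagens and their processing 5 were higher and 0 lower (5.36% and 2.02% of all genes; median 0.20). In the collagen list the higher and lower counts were 1 and 0 without 7 dpi library 1 or 7 dpi library 2, 5 and 1 without control 2, 3 and 0 without control 3. adamts14, a protease that trims procollagen, was at 1.98, 1.997 and 1.54 in the controls and 11.7 and 10.2 scaled TPM at 7 dpi (2.08 ± 0.28, adjusted p = 0.000656). serpinh1a, the collagen chaperone Hsp47, was at 3.25, 4.9 and 5.09 in the controls and 17.04 and 18.7 at 7 dpi (1.82 ± 0.35, adjusted p = 0.00691). p4hb, part of the enzyme that hydroxylates collagen, was at 23.2, 20.9 and 18.9 in the controls and 53.4 and 47.6 at 7 dpi (1.23 ± 0.25, adjusted p = 0.00902). bmp1a, a procollagen C-proteinase, was at 9.39, 7.34 and 5.86 in the controls and 18.2 and 19.4 at 7 dpi (1.23 ± 0.27, adjusted p = 0.0141). The fifth was pcolcea, the enhancer of that proteinase. col1a1a, a chain of the main collagen, was at 1344, 1078 and 1049 in the controls and 985 and 1234 at 7 dpi and its groups overlapped (-0.06 ± 0.54, adjusted p = 0.973). adamts14 kept its call whichever of the 5 libraries was left out, and the adjusted p rose to at most 0.0871 for serpinh1a and 0.127 for bmp1a without 7 dpi library 2, and 0.0974 for p4hb without 7 dpi library 1. On unscaled TPM bmp1a had an adjusted p of 0.0549.

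Of 72 further matrix and fibroblast genes 4 were higher and 4 lower (5.36% and 2.02% of all genes; median -0.02, and 0.06 after quantile normalization). In the further matrix list the higher and lower counts were 4 and 2 on unscaled TPM, 0 and 1 without 7 dpi library 1 or 7 dpi library 2, 2 and 1 without control 1, 2 and 4 without control 2, 1 and 2 without control 3. fn1a, fibronectin, was at 33.4, 20.2 and 11.03 in the controls and 96.7 and 108 scaled TPM at 7 dpi (2.32 ± 0.53, adjusted p = 0.0169). MFAP2, a microfibril protein, was at 6.23, 10.6 and 8.84 in the controls and 55.9 and 88.3 at 7 dpi (2.93 ± 0.67, adjusted p = 0.0177). ADAMTS5, a protease that cuts versican and aggrecan, fell to 1.25 and 1.17 from 6.09, 4.2 and 4.59 (-1.42 ± 0.18, adjusted p = 0.000493). has1, a hyaluronan synthase, was at 4.02, 0.863 and 2.75 in the controls and 0.262 and 0.0719 at 7 dpi (-1.49 ± 0.36, adjusted p = 0.0211). Outside this list, prg4b, lubricin, was at 17.5, 18.8 and 10.9 in the controls and 1.13 and 2.42 at 7 dpi (-2.60 ± 0.46, adjusted p = 0.00425). Fibronectin and the microfibril protein were thus high where a protease, a synthase and, from outside the list, lubricin were low. The wound matrix genes tnc (4.13, 5.31 and 4.58 in the controls and 3.43 and 6.05 at 7 dpi; -0.02 ± 0.38, adjusted p = 0.994) and postnb (95.5, 90.9 and 87.1 in the controls and 129 and 165 at 7 dpi; 0.67 ± 0.36, adjusted p = 0.271) were not called. ADAMTS5 kept its call whichever of the 5 libraries was left out, and the adjusted p rose to at most 0.137 for fn1a, 0.169 for MFAP2 and 0.172 for has1 without 7 dpi library 2, and 0.0756 for prg4b without 7 dpi library 1. With only the compared groups fn1a had an adjusted p of 0.0529 and has1 0.113.

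**Figure D3:**
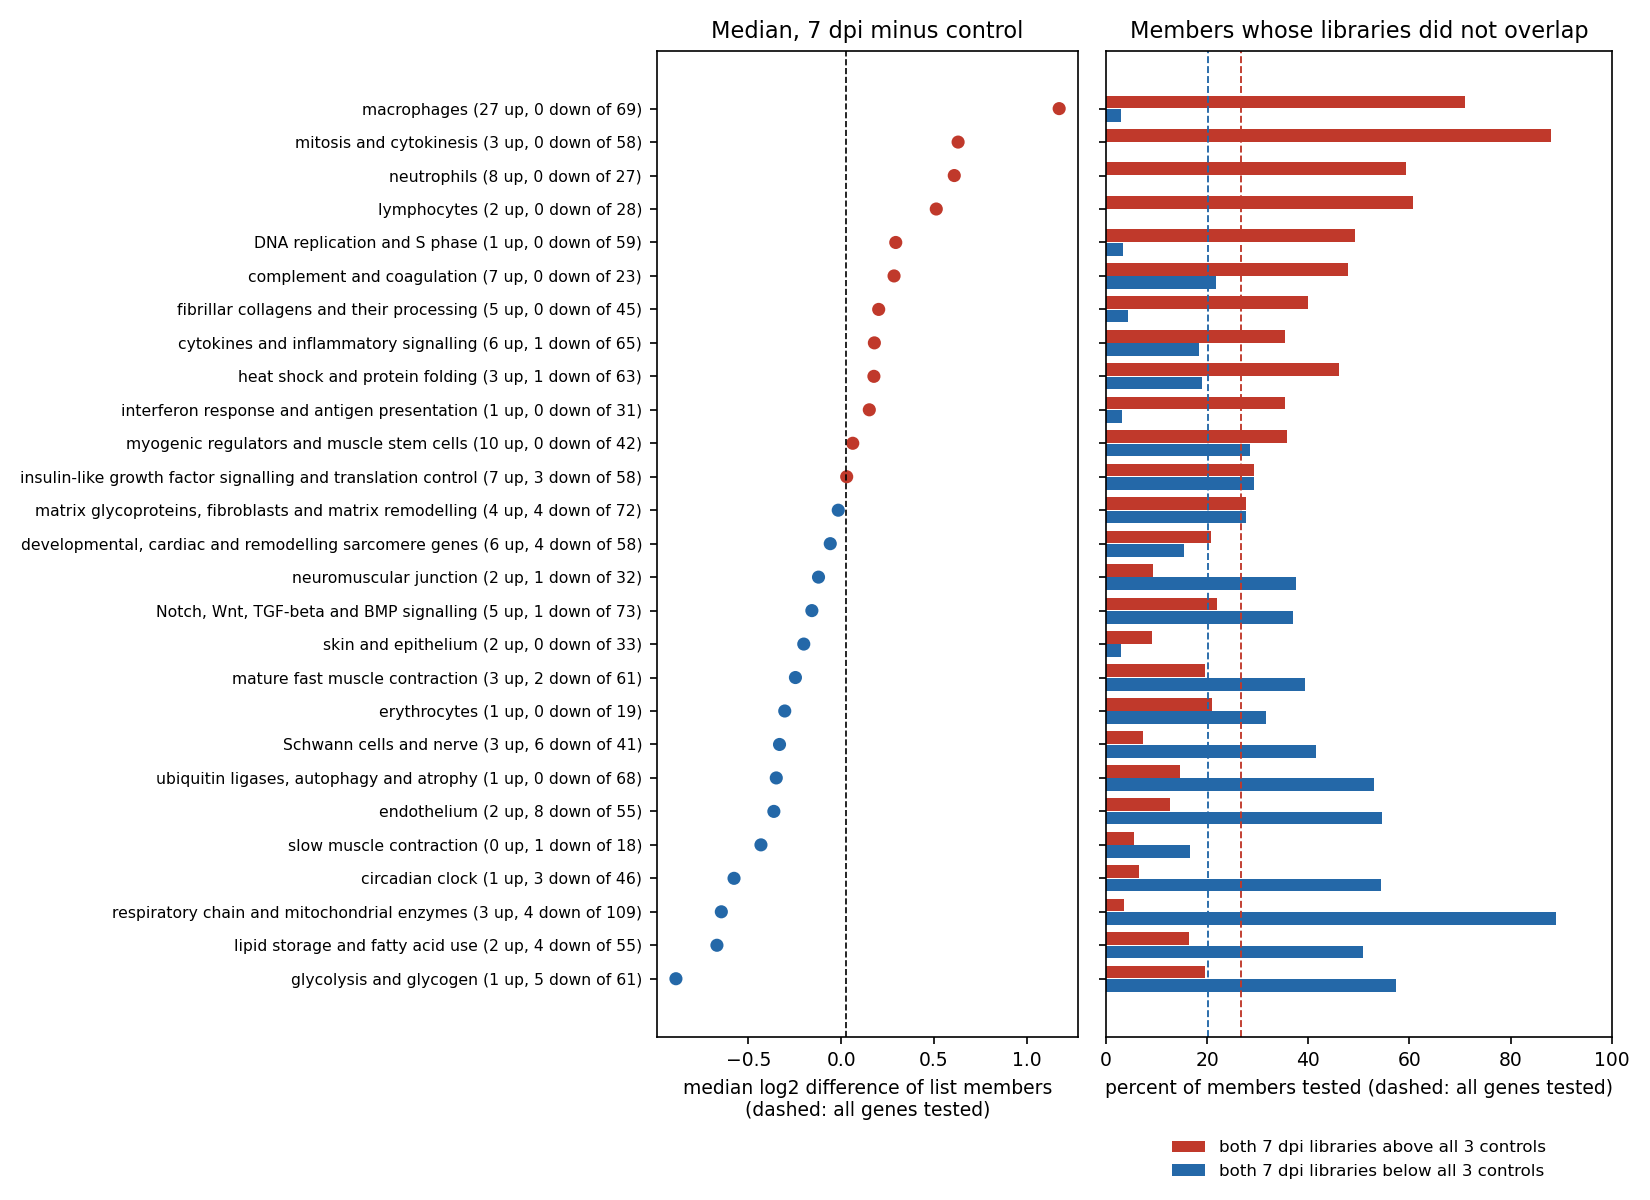
Left, median log2 difference (7 dpi minus control) of the members of 27 gene lists, with the numbers higher and lower of those tested; right, percent of members with both 7 dpi libraries above (red) or below (blue) all 3 controls; dashed lines give all genes tested (0.03, 26.8% and 20.3%). Macrophage genes lie highest (median 1.18) and glycolysis genes lowest (median -0.89); in mitosis 51 of 58 members lie above all controls and in the respiratory list 97 of 109 lie below.

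Cell division genes were shifted upward with few calls. Of 58 genes of mitosis and cytokinesis 3 were higher and 0 lower (5.36% and 2.02% of all genes), but 51 had both injured libraries above all controls (26.8% of all genes) and their median was 0.63. The summed level was 111 and 127 scaled TPM at 7 dpi against 47.1 to 51.8 in the controls. In the mitosis list the higher and lower counts were 0 and 0 without 7 dpi library 1 or 7 dpi library 2, 1 and 0 without control 1, control 2 or control 3. lmnb1, lamin B1 of the nuclear envelope, was at 2.21, 3.28 and 1.78 in the controls and 9.53 and 10.6 at 7 dpi (1.71 ± 0.34, adjusted p = 0.00852). smc4, a condensin subunit, was at 2.4, 2.98 and 2.7 in the controls and 8.23 and 10.3 at 7 dpi (1.47 ± 0.37, adjusted p = 0.0286). mad2l1, of the spindle checkpoint, was at 0.595, 0 and 0.359 in the controls and 3.45 and 3.81 at 7 dpi (1.84 ± 0.53, adjusted p = 0.0466). top2a, the DNA topoisomerase of dividing cells, was at 0.449, 0.436 and 0.43 in the controls and 1.77 and 1.81 at 7 dpi and was not called (0.95 ± 0.45, adjusted p = 0.206). In 59 DNA replication genes 1 was higher (5.36% of all genes), the transcription factor E2F3 at 0.146, 0.601 and 0.37 in the controls and 1.38 and 1.53 at 7 dpi (0.85 ± 0.21, adjusted p = 0.0243). pcna, the replication clamp, was at 6.7, 7.47 and 7.83 in the controls and 11.2 and 12.3 at 7 dpi (0.61 ± 0.47, adjusted p = 0.461). lmnb1 reached an adjusted p of 0.0991, smc4 0.214, mad2l1 0.241 and E2F3 0.175 without 7 dpi library 2, the highest values with single libraries left out. On unscaled TPM E2F3 had an adjusted p of 0.0691, and with no filter mad2l1 0.0712, and after quantile normalization mad2l1 0.0644, and with only the compared groups E2F3 0.0534.

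Some genes of ribosome production were among the rises and some of insulin signalling among the falls. In 58 genes of insulin-like growth factor signalling and translation control 7 were higher and 3 lower (5.36% and 2.02% of all genes; median 0.03). In the insulin and translation list the higher and lower counts were 3 and 0 on unscaled TPM, 7 and 5 after quantile normalization, 2 and 0 without 7 dpi library 1, 0 and 1 without 7 dpi library 2, 5 and 1 without control 1, 4 and 1 without control 3. npm1a, nucleophosmin, was at 15.9, 18.6 and 12.7 in the controls and 41.03 and 51.4 scaled TPM at 7 dpi (1.501 ± 0.26, adjusted p = 0.00411), nop56 at 10.4, 13.6 and 16.04 in the controls and 29.8 and 29.9 at 7 dpi (1.12 ± 0.20, adjusted p = 0.00425) and nop58 at 9.6, 13.9 and 12.03 in the controls and 26.3 and 32.2 at 7 dpi (1.25 ± 0.24, adjusted p = 0.00696); both nop genes encode core proteins of the particles that methylate ribosomal RNA. irs2a, which relays the insulin signal, was at 84.2, 60.5 and 62.7 in the controls and 21.2 and 25.8 at 7 dpi (-1.51 ± 0.26, adjusted p = 0.00357). eif4ebp3, an inhibitor of translation initiation, was at 7.53, 9.53 and 3.87 in the controls and 32.9 and 36.8 at 7 dpi (2.24 ± 0.54, adjusted p = 0.0235). It was also the 1 gene called among 68 of the ubiquitin, autophagy and atrophy list. There 1 was higher and 0 lower (5.36% and 2.02% of all genes). The median of the atrophy list was -0.35, and its summed level was 2518 and 3027 against 4510.5 to 5843. Among fits that kept both 7 dpi libraries, the higher and lower counts in the atrophy list were 1 and 1 after quantile normalization and 0 and 0 without control 3. Outside these lists, mknk2a, a kinase that acts on an initiation factor, was at 9.06, 5.07 and 7.03 in the controls and 1.46 and 1.04 at 7 dpi (-1.82 ± 0.33, adjusted p = 0.00521). pik3ip1, an inhibitor of phosphoinositide 3-kinase, was at 31.4, 40.4 and 54.4 in the controls and 8.66 and 8.43 at 7 dpi (-2.14 ± 0.38, adjusted p = 0.00445). npm1a reached an adjusted p of 0.0799, nop56 0.0575, nop58 0.107, eif4ebp3 0.167, mknk2a 0.0824 and pik3ip1 0.0579 without 7 dpi library 2, and irs2a 0.0635 without 7 dpi library 1, the highest values with single libraries left out. On unscaled TPM nop58 had an adjusted p of 0.0523 and irs2a 0.0639.

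Of 61 glycolysis and glycogen genes 5 were lower and 1 higher (2.02% and 5.36% of all genes), 35 had both injured libraries below all controls (20.3% of all genes), and the median was -0.89. The summed level was 13880 and 13899 scaled TPM against 34294 to 45242. In the glycolysis list the higher and lower counts were 0 and 3 on unscaled TPM, 0 and 0 without 7 dpi library 1 or 7 dpi library 2, 1 and 1 without control 1 or control 3, 1 and 3 without control 2. gys1, muscle glycogen synthase, was at 509, 596 and 550.1 in the controls and 223 and 229.5 at 7 dpi (-1.28 ± 0.28, adjusted p = 0.0151). phkg1a, the catalytic subunit of phosphorylase kinase, was at 134, 133 and 205 in the controls and 41.2 and 37.4 at 7 dpi (-1.94 ± 0.53, adjusted p = 0.0367). gbe1b, the glycogen branching enzyme, was at 30.4, 26.2 and 35.4 in the controls and 14.1 and 17.9 at 7 dpi (-0.90 ± 0.24, adjusted p = 0.0358). slc2a1b, a glucose transporter, was at 42.1, 26.5 and 30.2 in the controls and 8.25 and 12.6 at 7 dpi (-1.57 ± 0.39, adjusted p = 0.0251). The higher gene was gpia, a glucose phosphate isomerase, at 17.4, 21.04 and 17.2 in the controls and 37.2 and 38.2 at 7 dpi (0.99 ± 0.20, adjusted p = 0.0102). gys1 reached an adjusted p of 0.118, phkg1a 0.214 and gpia 0.104 without 7 dpi library 2, and gbe1b 0.245 and slc2a1b 0.203 without 7 dpi library 1, the highest values with single libraries left out. On unscaled TPM gys1 had an adjusted p of 0.0517, gbe1b 0.0876, slc2a1b 0.0623 and gpia 0.102, and with no filter phkg1a 0.0554, and with only the compared groups gbe1b 0.0534.

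Respiratory genes were shifted downward with few calls: 97 of 109 had both injured libraries below all controls (20.3% of all genes), 4 were lower and 3 higher (2.02% and 5.36% of all genes), and the median was -0.65. In the respiratory list the higher and lower counts were 3 and 0 on unscaled TPM and without 7 dpi library 2, 2 and 0 without 7 dpi library 1, 3 and 1 without control 1, control 2 or control 3. The summed level was 22784 and 22954 scaled TPM against 36921 to 39217. SDHB, a subunit of succinate dehydrogenase, was at 109, 112 and 108 in the controls and 43.6 and 48.9 at 7 dpi (-1.23 ± 0.28, adjusted p = 0.0164). Cytochrome c oxidase subunits, looked at as a family after their values were seen, split: of 22 identifiers 4 were higher and 1 lower (5.36% and 2.02% of all genes). cox6a1 was at 9.06, 13.2 and 11.3 in the controls and 40.8 and 51.4 at 7 dpi (1.95 ± 0.25, adjusted p = 0.000376) and cox7a2a at 6.58, 8.83 and 8.13 in the controls and 31.7 and 34.9 at 7 dpi (1.96 ± 0.27, adjusted p = 0.000699); in mammals the heart and skeletal muscle forms come from other genes. ndufa4, now assigned to the same enzyme, was at 3.03, 7.94 and 9.94 in the controls and 69.3 and 93.6 at 7 dpi (3.47 ± 0.60, adjusted p = 0.00361). More abundant subunits were lower without being called, for example cox7c at 1270.1, 1605 and 1285 in the controls and 725 and 798 at 7 dpi (-0.86 ± 0.36, adjusted p = 0.162). ogdhb, a 2-oxoglutarate dehydrogenase gene, was at 1.07, 1.43 and 0.98 in the controls and 5.6 and 3.69 at 7 dpi (1.37 ± 0.27, adjusted p = 0.00803). cox6a1 and cox7a2a kept their calls whichever of the 5 libraries was left out, and the adjusted p rose to at most 0.115 for ogdhb and 0.134 for SDHB without 7 dpi library 1, and 0.0629 for ndufa4 without 7 dpi library 2. On unscaled TPM SDHB had an adjusted p of 0.102.

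Genes of fat use were lower in part. Of 55 genes of lipid storage and fatty acid use 4 were lower and 2 higher (2.02% and 5.36% of all genes; median -0.67), while their summed level, which holds apoeb, was 6226 and 6503 against 4989 to 5217. In the lipid list the higher and lower counts were 2 and 1 on unscaled TPM, 0 and 0 without 7 dpi library 1, 7 dpi library 2 or control 3, 1 and 0 without control 1, 2 and 2 without control 2. pparaa, the nuclear receptor that turns on fatty acid oxidation, was at 43.4, 25.2 and 39.9 in the controls and 6.03 and 8.16 scaled TPM at 7 dpi (-2.17 ± 0.53, adjusted p = 0.0243). ucp3, an uncoupling protein of muscle mitochondria, was at 339, 147 and 190.4 in the controls and 68.7 and 43.1 at 7 dpi (-1.94 ± 0.50, adjusted p = 0.0307). acadsb, an acyl-CoA dehydrogenase, was at 45.5, 44.8 and 49.4 in the controls and 23.02 and 22.03 at 7 dpi (-1.02 ± 0.25, adjusted p = 0.0269). ucp2, a relative of ucp3 found in many tissues, went up from 19.3, 52.6 and 25.5 to 91.6 and 97.3 (1.64 ± 0.37, adjusted p = 0.0161). Mitochondrial carriers outside the lists were among the largest falls: SLC25A12, the aspartate and glutamate carrier, was at 149, 152 and 177 in the controls and 40.2 and 36.7 at 7 dpi (-2.02 ± 0.35, adjusted p = 0.00344). slc25a33, a carrier of pyrimidine nucleotides, was at 394, 235 and 313 in the controls and 86.1 and 92.1 at 7 dpi (-1.78 ± 0.39, adjusted p = 0.0148). ucp3 reached an adjusted p of 0.254, acadsb 0.174, ucp2 0.132 and SLC25A12 0.0557 without 7 dpi library 2, and pparaa 0.17 and slc25a33 0.113 without 7 dpi library 1, the highest values with single libraries left out. On unscaled TPM ucp3 had an adjusted p of 0.103 and acadsb 0.174, and with only the compared groups ucp3 0.0623 and ucp2 0.0893.

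Other large changes concerned single genes. slc43a2b, an amino acid transporter, was at 4.82, 2.45 and 1.48 in the controls and 63.3 and 62.2 scaled TPM at 7 dpi (4.12 ± 0.50, adjusted p = 0.00032). hspa8, the constitutive Hsp70 chaperone, rose from 153, 201 and 138 to 956 and 1042 (2.62 ± 0.25, adjusted p = 4.6e-05), and bag2, a co-chaperone, was at 20.6, 17.8 and 20.5 in the controls and 44.3 and 39.6 at 7 dpi (1.06 ± 0.25, adjusted p = 0.0223). Of 63 genes of heat shock and protein folding 3 were higher and 1 lower, near the share of all genes (5.36% and 2.02%). In the heat shock list the higher and lower counts were 3 and 0 on unscaled TPM and without control 1, 7 and 1 after quantile normalization, 1 and 0 without 7 dpi library 1 or 7 dpi library 2, 2 and 0 without control 2. tdh, threonine dehydrogenase, was at 119.7, 76.7 and 86.9 in the controls and 19.7 and 18.3 at 7 dpi (-2.23 ± 0.45, adjusted p = 0.00971). peli1a, a ubiquitin ligase of Toll-like receptor signalling, was at 13.1, 7.15 and 8.999 in the controls and 1.68 and 1.57 at 7 dpi (-1.996 ± 0.26, adjusted p = 0.000527). lmx1a, a LIM homeobox factor, was at 6.9, 8.04 and 10.8 in the controls and 1.42 and 1.82 at 7 dpi (-1.85 ± 0.48, adjusted p = 0.0308), phtf2 at 119.8, 65.1 and 156 in the controls and 29.9 and 25.03 at 7 dpi (-1.93 ± 0.40, adjusted p = 0.00998). acyp2, the muscle acylphosphatase, was at 57.6, 30.3 and 47.6 in the controls and 14.9 and 10.4 at 7 dpi (-1.73 ± 0.43, adjusted p = 0.0273). slc43a2b, hspa8 and peli1a kept their calls whichever of the 5 libraries was left out, and the adjusted p rose to at most 0.1 for tdh, 0.116 for phtf2 and 0.223 for acyp2 without 7 dpi library 2, and 0.159 for bag2 and 0.18 for lmx1a without 7 dpi library 1. With a pseudocount of 0.1 lmx1a had an adjusted p of 0.181, and with only the compared groups phtf2 0.055.

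Of 55 endothelial genes 8 were lower and 2 higher (2.02% and 5.36% of all genes), 30 had both injured libraries below all controls (20.3% of all genes), and the median was -0.36. In the endothelial list the higher and lower counts were 1 and 2 on unscaled TPM, 0 and 2 without 7 dpi library 1, 0 and 0 without 7 dpi library 2, 1 and 5 without control 2, 1 and 4 without control 3. sox17 and sox18, transcription factors of the vessel wall, were at 14.3, 11.97 and 15.2 in the controls and 5.44 and 5.44 at 7 dpi (-1.195 ± 0.20, adjusted p = 0.00342) and 8.18, 7.33 and 7.17 in the controls and 3.89 and 3.09 scaled TPM at 7 dpi (-0.93 ± 0.19, adjusted p = 0.0102). pecam1, the adhesion molecule between endothelial cells, was at 38.8, 28.5 and 33.3 in the controls and 18.9 and 15.3 at 7 dpi (-0.93 ± 0.19, adjusted p = 0.0096). egfl7, a protein that endothelium secretes, was at 4.86, 4.91 and 5.38 in the controls and 1.04 and 1.59 at 7 dpi (-1.39 ± 0.27, adjusted p = 0.00813). The list's summed level was 328 and 352 against 446 to 527. Of 19 erythrocyte genes 1 was higher and 0 lower (5.36% and 2.02% of all genes), with a median of -0.30. The higher gene was the transferrin receptor tfr1a, at 1.71, 1.12 and 1.74 in the controls and 3.02 and 3.05 at 7 dpi (0.69 ± 0.19, adjusted p = 0.0439). In 7 of the 19 the log2 difference was above 0. Of the 19, 6 had both injured libraries below all controls and 4 above (20.3% and 26.8% of all genes). ank1a, fech and bpgm were among the 6 and were not called (limma, adjusted p = 0.0641, 0.1205 and 0.198). Fits of the erythrocyte list that kept both 7 dpi libraries gave higher and lower counts of 0 and 0 on unscaled TPM and after quantile normalization. The counts were also 0 and 0 without control 1 or control 3, and 0 and 1 without control 2. sox17 reached an adjusted p of 0.0516, sox18 0.137, pecam1 0.137 and tfr1a 0.221 without 7 dpi library 2, and egfl7 0.1 without 7 dpi library 1, the highest values with single libraries left out. On unscaled TPM sox18 had an adjusted p of 0.0935, pecam1 0.0969 and tfr1a 0.174, and with no filter tfr1a 0.0648, and after quantile normalization tfr1a 0.0827, and with only the compared groups tfr1a 0.0807.

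Of 41 genes of Schwann cells and nerve 6 were lower and 3 higher (2.02% and 5.36% of all genes; median -0.33), and the summed level was 346 and 469 scaled TPM against 522 to 609. In the Schwann cell list the higher and lower counts were 3 and 2 on unscaled TPM, 1 and 1 without 7 dpi library 1 or 7 dpi library 2, 2 and 3 without control 1 or control 3. egr2b, the master factor of myelination, was at 11.3, 9.34 and 10.505 in the controls and 4.07 and 3.99 at 7 dpi (-1.17 ± 0.20, adjusted p = 0.00344). erbb3a, the neuregulin receptor, was at 3.32, 4.05 and 4.51 in the controls and 0.952 and 1.27 at 7 dpi (-1.23 ± 0.22, adjusted p = 0.00513). The other lower genes were mpz, mag, cldn19 and adgrg6, all of myelin or its formation. nrg1, the neuregulin that acts on ErbB3, was at 1.29, 1.84 and 2.72 in the controls and 6.73 and 4.79 at 7 dpi (1.21 ± 0.28, adjusted p = 0.0197), in the opposite direction to its receptor. ncam1a and cnp were the other rises. erbb3a reached an adjusted p of 0.0767 and nrg1 0.182 without 7 dpi library 1, and egr2b 0.0528 without 7 dpi library 2, the highest values with single libraries left out. With only the compared groups nrg1 had an adjusted p of 0.0658.

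Of 46 clock genes 3 were lower and 1 higher (2.02% and 5.36% of all genes), 25 had both injured libraries below all controls (20.3% of all genes), and the median was -0.58. In the clock list the higher and lower counts were 0 and 1 on unscaled TPM and without control 2, 0 and 2 without 7 dpi library 1, control 1 or control 3, 0 and 0 without 7 dpi library 2. rorca, a nuclear receptor that drives clock genes, was at 7.4, 10.4 and 12.3 in the controls and 3.78 and 2.27 scaled TPM at 7 dpi (-1.46 ± 0.24, adjusted p = 0.00257). nfil3-6 and nfil3, repressors that act on clock output, differed in direction, at 87.6, 212 and 116 in the controls and 44.3 and 40.2 at 7 dpi (-1.59 ± 0.41, adjusted p = 0.0299) and 5.55, 4.47 and 4.03 in the controls and 15.8 and 13.04 at 7 dpi (1.45 ± 0.39, adjusted p = 0.0365). cry1a, a cryptochrome that light induces in zebrafish, was at 49.1, 52.8 and 39.1 in the controls and 30.1 and 28.01 at 7 dpi (-0.67 ± 0.18, adjusted p = 0.0362). arntl1b, a Bmal1 gene, was at 37.8, 22.1 and 22.8 in the controls and 13.8 and 7.65 at 7 dpi (-1.29 ± 0.41, adjusted p = 0.0648) and per2 at 5.99, 3.84 and 4.21 in the controls and 2.33 and 3.34 at 7 dpi (-0.56 ± 0.30, adjusted p = 0.275), neither called. The hour of collection of these libraries is not given, so hour and injury cannot be told apart here. rorca reached an adjusted p of 0.0675, nfil3-6 0.192 and cry1a 0.231 without 7 dpi library 2, and nfil3 0.21 without 7 dpi library 1, the highest values with single libraries left out. On unscaled TPM nfil3-6 had an adjusted p of 0.052, nfil3 0.104 and cry1a 0.309, and with no filter nfil3 0.0545, and after quantile normalization cry1a 0.0669, and with only the compared groups rorca 0.051, nfil3-6 0.078 and cry1a 0.0724.

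Among 73 genes of Notch, Wnt, TGF-beta and BMP signalling 5 were higher and 1 lower, near the share of all genes (5.36% and 2.02%), with a median of -0.16. In the Notch and Wnt list the higher and lower counts were 3 and 0 on unscaled TPM and without control 1 or control 2, 5 and 2 after quantile normalization, 0 and 0 without 7 dpi library 1 or 7 dpi library 2, 2 and 1 without control 3. notch1a, a Notch receptor, was at 1.09, 1.18 and 0.789 in the controls and 2.77 and 3.19 scaled TPM at 7 dpi (0.98 ± 0.19, adjusted p = 0.00839). tgfbr2b, a receptor for TGF-beta, was at 16.4, 15.7 and 15.8 in the controls and 10.3 and 10.3 at 7 dpi (-0.59 ± 0.15, adjusted p = 0.027), below its controls where its ligand gene tgfb1b was above. Of 33 skin genes 2 were higher and 0 lower (5.36% and 2.02% of all genes): krt18b at 104, 81.8 and 62.2 in the controls and 282 and 289.6 at 7 dpi (1.81 ± 0.30, adjusted p = 0.00307) and krt8 at 223, 191 and 124 in the controls and 333 and 335 at 7 dpi (0.94 ± 0.26, adjusted p = 0.0418), keratins of simple epithelia. The median of the skin list was -0.20, 0.55 without control 2, the library with the high skin level, and -0.79 and -0.76 without control 1 or 3. In the skin list the higher and lower counts were 1 and 0 on unscaled TPM and without 7 dpi library 1, 7 dpi library 2, control 2 or control 3. krt18b kept its call whichever of the 5 libraries was left out, and the adjusted p rose to at most 0.216 for krt8, 0.107 for notch1a and 0.167 for tgfbr2b without 7 dpi library 2. On unscaled TPM krt8 had an adjusted p of 0.0969 and tgfbr2b 0.292, and with no filter krt8 0.052, and with only the compared groups krt8 0.104.

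The response of the surface form at the same stage was compared with that of the cave form. In surface fish 525 genes were higher and 250 lower at 7 dpi (3.11% and 1.48% of those tested, 4.59% in all). The 2 comparisons share no library. Their log2 differences correlated over 16884 genes, which are not independent, with Pearson's r = 0.650 and Spearman's rho = 0.621. 379 genes were called in the same direction in both forms, 30.4% of the cave calls and 48.9% of the surface calls, and 1 in opposite directions. Of the 1246 cave calls 1182 (94.9%) had the same sign in surface fish, against 72.3% of all genes. The difference between the forms was called for 8 genes, 0.0474% of those tested (5 larger and 3 smaller in cave fish, 0.0296% and 0.0178%), with 808 at an unadjusted p under 0.05. Genes named above rose in surface fish too: mymk was at 0.204, 0 and 0 in surface controls and 4.9 and 3.23 at 7 dpi (2.23 ± 0.21, adjusted p = 6.67e-05), and ankrd1b at 0.728, 0.226 and 0 in the controls and 160.0 and 88.2 at 7 dpi (6.54 ± 0.59, adjusted p = 6.67e-05).

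Among the 8, myl4 was the 1 gene of the muscle lists. In cave fish it went from 0 in all controls to 5.27 and 5.38 scaled TPM, and in surface fish from 0 to 0.621 and 1.44; the difference of the 2 responses had an adjusted p of 0.00852. pvalb2 was at 36.02, 307 and 175 in cave controls and 1326, 579 and 936 in surface controls. At 7 dpi it was at 8492 and 11599.9 in cave fish and 10039 and 9943 in surface fish, and the difference of the responses was not called (2.82 ± 1.11, adjusted p = 0.919). actc1a was at 5.84, 34.8 and 26.997 in cave controls and 0.641, 0.596 and 2.41 in surface controls, and the difference of its responses was not called either (-3.04 ± 1.65, adjusted p = 1). gch2, which makes the first step of pteridine pigments, was listed at 0 in all 5 cave libraries, at 0.204, 0.131 and 0.222 in surface controls and at 2.76 and 2.31 in surface fish at 7 dpi (adjusted p = 0.00852). The count of 8 ran from 3 to 16 when single libraries were left out; it was 3 without either cave 7 dpi library, 4 without surface 7 dpi library 1 and 16 without surface 7 dpi library 2.

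**Figure D4:**
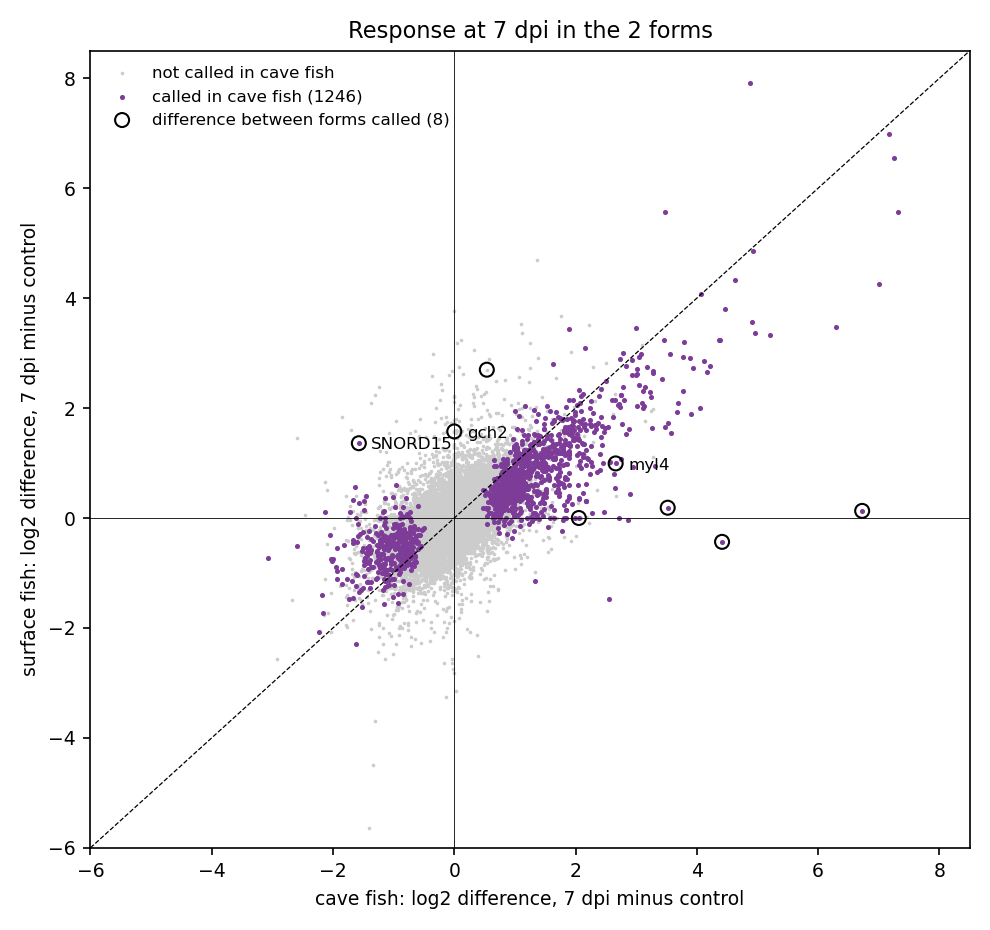
Log2 difference between 7 dpi and control in cave fish (x axis) and surface fish (y axis) for 16884 genes; purple points were called in cave fish (1246), circles mark the 8 genes whose difference between the forms was called, and the dashed line marks equal responses. Most purple points share their sign in both forms (1182 of 1246), and myl4 lies below the line.

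Against cave muscle at 1 dpi, 720 genes were higher at 7 dpi and 896 lower (4.26% and 5.31% of those tested, 9.57% in all, limma). Genes of fusion and new sarcomeres were among the rises: mymk and myl4 were listed at 0 in all 3 libraries at 1 dpi (adjusted p = 2.29e-06 and 2.88e-07), ankrd1b was at 0.101, 0.158 and 0.104 (7.33 ± 0.59, adjusted p = 4.12e-06), tnni2b.1 at 1.59, 0.554 and 1.48 (7.47 ± 0.70, adjusted p = 2.2e-05). mat1a, a methionine adenosyltransferase, was at 0.777, 0.737 and 0.215 against 24.7 and 25.1 (4.06 ± 0.36, adjusted p = 1.01e-05). Other genes fell between these stages. vcana, the matrix proteoglycan versican, was at 39.6, 25.8 and 31.5 at 1 dpi and 2.93 and 2.67 at 7 dpi (-3.11 ± 0.31, adjusted p = 4.09e-05). emb, embigin, a partner of lactate transporters, was at 9.78, 13.3 and 6.79 at 1 dpi and 0.466 and 0.524 at 7 dpi (-2.83 ± 0.22, adjusted p = 2.29e-06). A GFUS identifier, for the enzyme that makes GDP-fucose, was at 7.24, 9.17 and 6.77 at 1 dpi and 0.865 and 0.36 at 7 dpi (-2.44 ± 0.21, adjusted p = 7.56e-06). In vcana, emb and this GFUS identifier the lowest library at 1 dpi lay above both libraries at 7 dpi. They were picked as called between these stages, and the share of all genes was not computed. A second GFUS identifier was higher at 7 dpi than in the controls, with a log2 difference of 1.83.

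Leukocyte genes were compared between the same stages. Of 27 neutrophil genes 12 were lower at 7 than at 1 dpi and 1 higher (5.31% and 4.26% of all genes): mpx was at 17.996, 18.5 and 3.24 at 1 dpi (-2.82 ± 0.48, adjusted p = 0.00191) and mmp9 at 151, 141 and 29.9 (-2.71 ± 0.59, adjusted p = 0.00977). Of 69 macrophage identifiers 19 were lower than at 1 dpi and 2 higher (5.31% and 4.26% of all genes). slc37a2 was at 21.5, 33.5 and 43.2 at 1 dpi, overlapping 7 dpi (0.07 ± 0.44, adjusted p = 0.959). On unscaled TPM the median of all genes in this comparison was -0.38 and 259 genes were higher and 1666 lower. The count was 473 and 448 without 7 dpi library 1 or 2 and 794 without 1 dpi library 2, against 1616 with all.

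Against cave muscle at 14 dpi, 6 genes were higher at 7 dpi and 2 lower, 0.0355% and 0.0118% of those tested (0.0474% in all), with 898 at an unadjusted p under 0.05. myl4 was at 0.361 and 0.213 at 14 dpi (2.30 ± 0.18, adjusted p = 2.59e-05) and mymk at 0.71 and 1.46 (1.70 ± 0.23, adjusted p = 0.00554). TMC2, a channel-like membrane protein of hair cells in mammals, was at 0.0683, 0.223 and 0.0837 in controls, 3.35 and 3.97 at 7 dpi and 0.658 and 0.589 at 14 dpi (1.52 ± 0.20, adjusted p = 0.00554). prl2, a gene named for prolactin, was listed at 0 in the controls, at 1.16 and 1.24 at 7 dpi and at 0 and 0.142 at 14 dpi (1.04 ± 0.16, adjusted p = 0.0161). In all 4 both 7 dpi libraries lay above the 14 dpi and control libraries. They were picked as called against 14 dpi, and the share of all genes was not computed. None of the 4 was called with a pseudocount of 0.1, where 0 genes were higher and 1 lower. With a mean TPM of at least 5, or with only the compared groups, 0 genes were called in this comparison. ankrd1b, at 15.4 and 34.1, and tnni2b.1, at 71.6 and 67.9, were lower at 14 dpi without passing the test (2.91 ± 0.65, adjusted p = 0.271 and 2.43 ± 0.77, adjusted p = 0.704). pvalb2 was at 8429 and 7632 at 14 dpi (0.31 ± 0.86, adjusted p = 1). With 2 libraries in each group the count of 8 was 13 and 186 without 14 dpi library 1 or 2 and 2 and 4 without 7 dpi library 1 or 2; on unscaled TPM the median of all genes was 0.13.

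**Figure D5:**
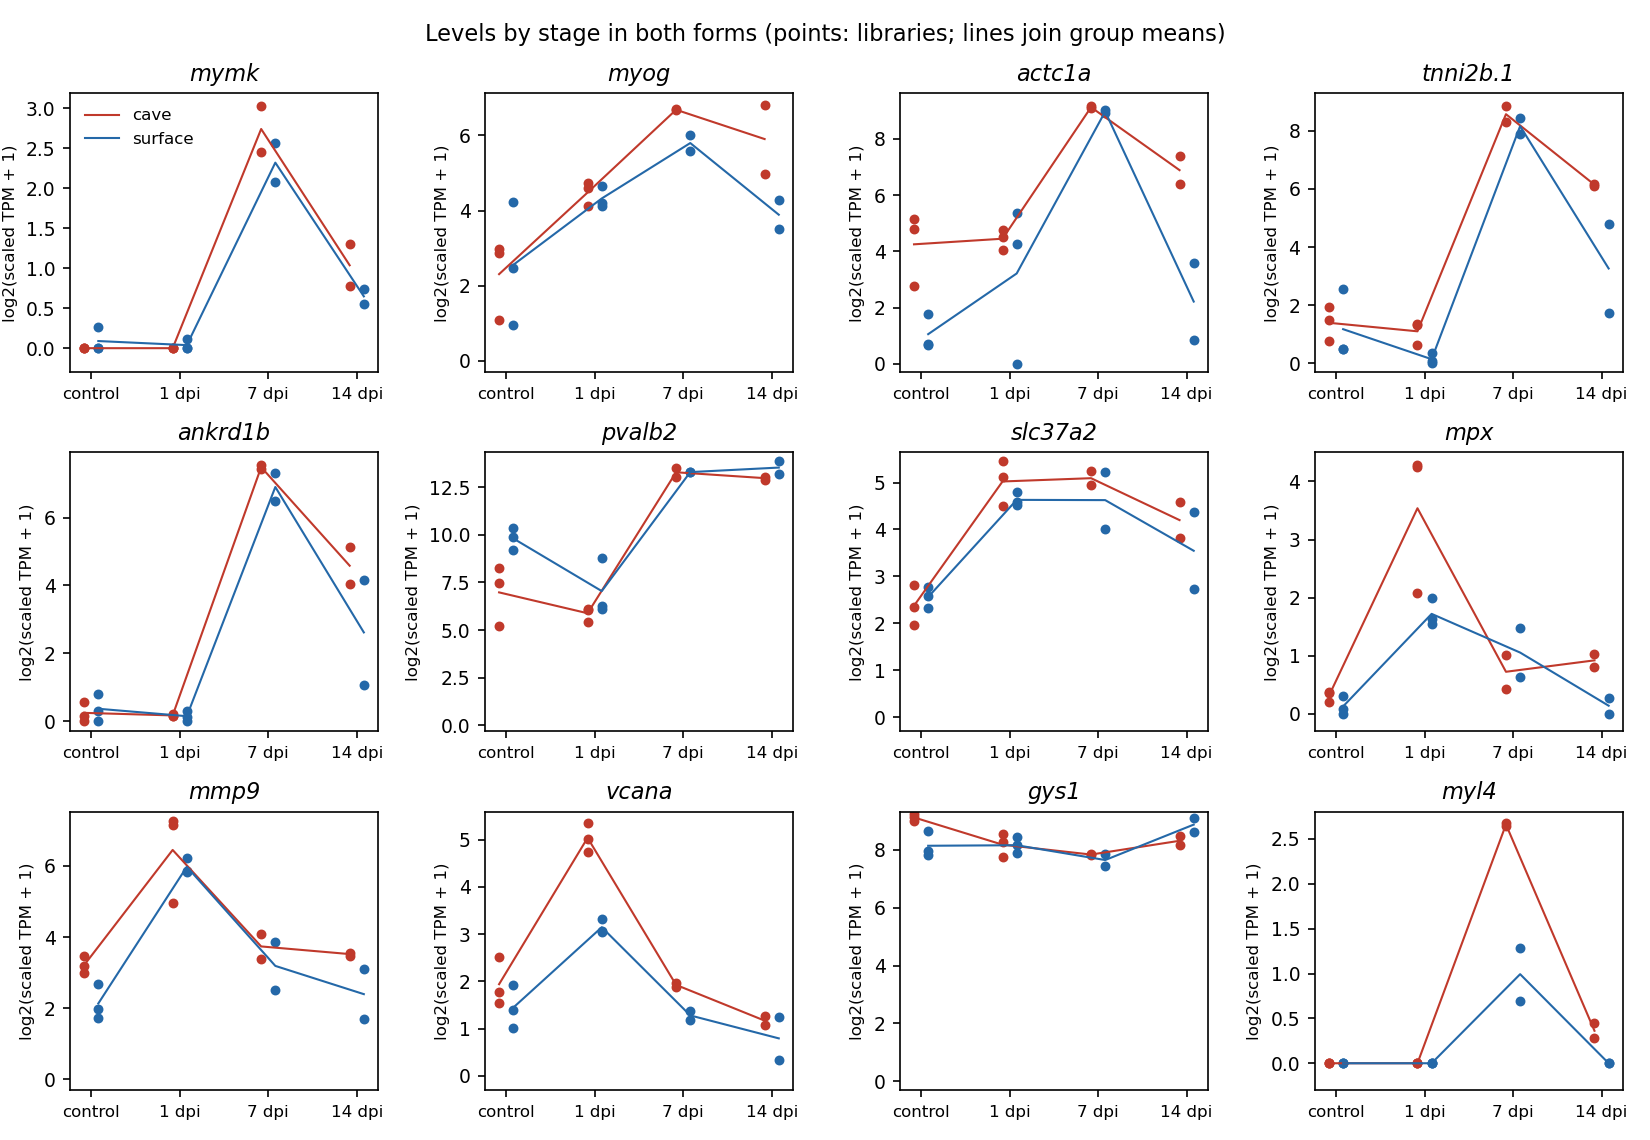
Level of 12 genes (y axis, log2 of scaled TPM + 1) in controls and at 1, 7 and 14 dpi, with cave fish in red and surface fish in blue; points are libraries and lines join group means. mymk, tnni2b.1, ankrd1b and myl4 peak at 7 dpi, pvalb2 stays high at 14 dpi, and mpx, mmp9 and vcana peak at 1 dpi in cave fish.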

How the data were processed

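Polyadenylated RNA of skeletal muscle was sequenced from strand-specific TruSeq libraries, with single reads of 75 bases, per the labels' protocols. The authors deposited TPM for 27420 identifiers, part of them with a symbol. Each column has a total of 1000000, so depth is unknown and no counting interval or floor was computed. STAR 2.7.3a and RSEM 1.3.0 are named, per the submitters' processing notes; neither build nor annotation is given in the sources used here, and no position or sequence is printed.

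Identifiers that reached 1 TPM in 2 or more libraries entered the tests (16884, of which 13363 have a symbol and 811 share one with another identifier; 2876 were at 0 in all). TPM was scaled by median-of-ratios factors over 9467 genes (0.837 to 1.03 in the 5 libraries). log2(scaled TPM + 1) was fitted with limma 3.58.1 in R 4.3.3, with a mean for each of 8 groups (20 libraries, 12 residual degrees of freedom), a mean-variance trend and Benjamini-Hochberg adjustment over all genes; adjusted p under 0.05 called a gene. Log2 differences on this scale understate the change of low genes. Each identifier was tested on its own.

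The members, gene lists, comparisons and naming rule were chosen with earlier results of these data known, so list counts describe only. Named were the 15 largest rises and falls with a symbol, called and without overlap, up to 4 members per list with the smallest adjusted p, the 5 smallest adjusted p in each direction of the other comparisons, and 27 set genes; 1 gene that the rule names is not reported here. Of these mymx, actc1b, mmp13a and mki67 were not found by name and pax7a was under the filter. Genes named as the remaining called members of a list, and the gene families, were chosen after their values were seen. The settings changed in turn were the pseudocount (0.1), the filter (none, or a mean TPM of at least 5), the scaling (none, or quantile normalization), the groups in the model (only those compared), a replicate block and each library. The cave comparisons share the 7 dpi libraries and are not independent.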

Additional observations from a re-analysis of the deposited data

Results flagged for a closer look

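The response at 7 dpi differed between cave and surface fish for 8 genes by a test of the difference itself (limma, cave response minus surface response, adjusted p under 0.05). For myl4 cave fish had 0, 0 and 0 scaled TPM in the controls and 5.27 and 5.38 at 7 dpi, and surface fish 0, 0 and 0 and 0.621 and 1.44 (1.67 ± 0.23, adjusted p = 0.00852). For SNORD15, a small nucleolar RNA that guides modification of ribosomal RNA, cave fish had 1.83, 1.92 and 2.19 scaled TPM in the controls and 0 and 0 at 7 dpi, and surface fish 0, 0 and 0 and 1.62 and 1.52 (-2.93 ± 0.32, adjusted p = 0.00132); it was called with each of 10 libraries left out. No SNORD15 value in these 10 libraries was above 2.19 scaled TPM, read depth is unknown, and polyadenylated RNA was sequenced. For gch2 cave fish had 0, 0 and 0 scaled TPM in the controls and 0 and 0 at 7 dpi, and surface fish 0.204, 0.131 and 0.222 and 2.76 and 2.31 (-1.57 ± 0.21, adjusted p = 0.00852).

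The other 5 have no symbol in the deposited table. For ENSAMXG00000007037 cave fish had 4.41, 1.69 and 6.53 scaled TPM in the controls and 339.5 and 752 at 7 dpi, and surface fish 1673, 485 and 993 and 850.4 and 1219.6 (6.596 ± 0.78, adjusted p = 0.00216). For ENSAMXG00000033876 cave fish had 1.19, 1.77 and 0.813 scaled TPM in the controls and 28.4 and 21.1 at 7 dpi, and surface fish 0, 0 and 0 and 0.296 and 0 (3.33 ± 0.33, adjusted p = 0.000583). Both were called with each of 10 libraries left out. The other pair with a larger difference in cave fish was called in 7 and 1 of 10 such fits. For the first cave fish had 0.215, 0.562 and 0.514 scaled TPM in the controls and 4.46 and 5.39 at 7 dpi, and surface fish 0, 0 and 0 and 0 and 0 (2.05 ± 0.29, adjusted p = 0.00852), and for the second cave fish had 3.49, 7.8 and 9.82 scaled TPM in the controls and 147 and 174 at 7 dpi, and surface fish 871, 622 and 619 and 497 and 532 (4.85 ± 0.78, adjusted p = 0.0383). For ENSAMXG00000006950, with a smaller response in cave fish, cave fish had 0.0781, 0.0873 and 0 scaled TPM in the controls and 0.525 and 0.534 at 7 dpi, and surface fish 0.204, 0.0834 and 0.166 and 4.92 and 8.4 (-2.16 ± 0.36, adjusted p = 0.0408); it was called in 1 of 10. myl4 was called in 7 and gch2 in 6 of 10. In 3 of the 8 genes 1 form was listed at 0, or at 0 but for 1 library, throughout its controls and 7 dpi. Where a group is listed at 0 the fitted log2 difference depends on the pseudocount and is no fold change. Near-identical copies may share reads, and the files do not say which identifiers do.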

How the results depend on the processing

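The 1246 calls at 7 dpi against control were 973 to 1364 under a pseudocount of 0.1, no filter, a mean TPM of at least 5, quantile normalization and only the compared groups, and 564 on unscaled TPM; with 1 library left out they ran from 156 to 758. Of 107 named called genes 33 to 87 kept their call when 1 library was left out, 79 on unscaled TPM, 82 with only the compared groups, 91 with the replicate block and 98 to 102 with a pseudocount of 0.1, no filter or quantile normalization. No named gene changed direction past the threshold under these settings. Similar totals did not always hold the same genes. Calls shared with the 1246 were 1091 of 1151 with a pseudocount of 0.1, 942 of 1063 with no filter and 541 of 564 on unscaled TPM. With a mean TPM of at least 5 they were 759 of 973, and after quantile normalization 1029 of 1212. With only the compared groups 767 of 1364 were shared, and with the replicate block 798 of 993.

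The 8 calls between the forms were 2 with a pseudocount of 0.1, 29 with no filter, 1 with a mean TPM of at least 5 and 14 with only the compared groups; leave-one-out gave 3 to 16. On unscaled TPM the median of all genes in this comparison was -0.20. Against 1 dpi, leave-one-out gave 448 to 1284 calls. The 8 calls against 14 dpi were 1, 39, 0 and 0 under the same 4 settings (limma; 898 genes had an unadjusted p under 0.05), and 2 to 186 by leave-one-out. The cause was not tested; the mean filter tests fewer genes and the restricted fit uses fewer libraries.

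Replicate numbers are only shared: deviations of same-numbered control and 7 dpi libraries correlated at 0.259 and 0.190, with 2 pairs and no label that gives a source. With 2 libraries at 7 dpi their deviations from the group mean mirror each other, so the 2 values are not separate. Control 1 with 7 dpi library 2 gave -0.259, and control 2 with 7 dpi library 1 gave -0.19. With the replicate block 993 genes were called against control, 5 between the forms, 1415 against 1 dpi and 3 against 14 dpi.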

Other observations

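Genes that handle arginine, creatine and methionine were among the called genes at 7 dpi; they form no list used above and were grouped after their values were seen. Of 18 identifiers tested 7 were higher and 1 lower (5.36% and 2.02% of all genes), a count that the choice of the group fixes in part. ASS1, argininosuccinate synthase, was at 3.68, 3.36 and 4.05 in the controls and 53.6 and 54.5 scaled TPM at 7 dpi (3.55 ± 0.48, adjusted p = 0.000595). asl, the lyase that then releases arginine, was at 1.54, 1.36 and 1.33 in the controls and 8.43 and 9.23 at 7 dpi (2.03 ± 0.22, adjusted p = 0.000155). otc, ornithine transcarbamylase, was at 3.08, 1.86 and 3.31 in the controls and 29.4 and 41.3 at 7 dpi (3.28 ± 0.59, adjusted p = 0.00478). arg2, the mitochondrial arginase, was at 87.3, 90.1 and 59.2 in the controls and 23.5 and 25.5 at 7 dpi (-1.62 ± 0.32, adjusted p = 0.00839). The other arginase gene, arg1, was at 1.76, 1.08 and 2.62 in the controls and 1.41 and 1.73 at 7 dpi and was not called (-0.10 ± 0.46, adjusted p = 0.937).

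gatm, which uses arginine for the first step of creatine synthesis, was at 28.4, 63.6 and 105 in the controls and 435 and 785 scaled TPM at 7 dpi (3.32 ± 0.95, adjusted p = 0.0462), while gamt, the second step, was at 2835, 2551 and 3049 in the controls and 1971 and 2098 at 7 dpi (-0.46 ± 0.43, adjusted p = 0.553). mat1a, which makes S-adenosylmethionine, was at 0.205, 0.698 and 1.39 in the controls and 24.7 and 25.1 at 7 dpi (3.93 ± 0.36, adjusted p = 2.88e-05). ahcy, which removes the product of methylation, was at 33.996, 36.1 and 59.7 in the controls and 228 and 228 at 7 dpi (2.42 ± 0.48, adjusted p = 0.00848). adkb, an adenosine kinase, was at 5.2, 3.02 and 5.09 in the controls and 47.8 and 50.9 at 7 dpi (3.24 ± 0.48, adjusted p = 0.00142). ASS1, asl, mat1a and adkb kept their calls whichever of the 5 libraries was left out, and the adjusted p rose to at most 0.0772 for otc, 0.292 for gatm and 0.0871 for ahcy without 7 dpi library 2, and 0.0839 for arg2 without 7 dpi library 1.

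Several genes outside the lists were called too and were picked after their values were seen. itga6a, a laminin receptor chain, was at 0.176, 0.989 and 0.263 in the controls and 11.9 and 12.99 scaled TPM at 7 dpi (3.23 ± 0.39, adjusted p = 0.000309), with control 2 above the other controls. efemp2a, an elastic fibre protein, was at 7.88, 11.2 and 6.36 in the controls and 109.5 and 101 at 7 dpi (3.52 ± 0.41, adjusted p = 0.000233). ckba, the brain-type creatine kinase, was at 62.0, 50.2 and 38.5 in the controls and 287 and 296 at 7 dpi (2.54 ± 0.28, adjusted p = 0.000171), beside ckma, which was not called.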
